A study of Drosophila melanogaster with 4 samples.

Results

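Acetylation of lysine 16 of histone H4 (H4K16ac) was mapped by chromatin immunoprecipitation and sequencing (ChIP-seq) in head nuclei of wild-type Oregon-R flies, labelled as mixed adults. An M in every title stays unexplained in the labels, no sex is stated, and the sex of the flies was taken as unknown. The clusters described here are the enriched regions on chromosome 4, on the heterochromatin sequences XHet, 2LHet, 2RHet, 3LHet and 3RHet, on the unplaced sequence U, and in the 1 Mb at the centromere end of each of the 5 large arms X, 2L, 2R, 3L and 3R. They were picked by position alone, so neither width nor score chose them. In the authors' combined list they numbered 319 of 5728 clusters (5.57%). The lists of the single replicates held 194 of 4051 such clusters in ChIP replicate 1 and 216 of 4431 in ChIP replicate 2. The series holds 2 ChIP samples of these heads, and 2 input samples of unprecipitated chromatin that are labelled as their controls. All 4 share strain, genotype, stage and tissue, and the labels leave unsaid whether the 2 replicates were separate collections of flies, so their spread may be no more than technical. No read numbers come with the lists, so depth is unknown and no value carries an interval from read counts. The input samples have no list of their own among the files used here, so no background measured in them stands beside these values.

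In flies the acetyltransferase MOF places H4K16ac. In males the MSL dosage compensation complex brings MOF to the X and the mark spreads over transcribed genes there, while on autosomes the mark is known chiefly from the starts of active genes. Chromatin around the centromeres and most of chromosome 4 carry methylated H3K9 and the protein HP1, which are hallmarks of silent chromatin. Chromosome 4 is the smallest fly chromosome, and its genes are nevertheless transcribed, many of them bound by the chromosome-4-specific protein POF. Heterochromatin also holds active genes scattered among repeats.

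Each quantity was computed in both replicate lists and is set beside the rest of the arms, meaning 92.6 Mb of 2L, 2R, 3L and 3R, and 21.4 Mb of the X, that lie outside the centromere-near windows. With 2 replicates of 1 group, no test between groups of samples was possible, and differences between classes were read only against the spread of the replicates. Lengths include assembly gaps and repeats, since the length open to read placement in each sequence was not known here. The score of a cluster is the authors' own value on a scale they do not state, and it was compared only among clusters of the same list.

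The classes fell into 3 levels of coverage. XHet and the centromere-near X were covered most, chromosome 4 and 3 of the 4 centromere-near autosome windows to several percent, and the autosome heterochromatin, U and the centromere-near 3L to about 3% or less. Clusters took up 37.1% of XHet in replicate 1 and 38.6% in replicate 2 (mean 37.9% ± 1.06, SD, n = 2). The centromere-near X was covered to 19.5% and 20.5% (20.0% ± 0.700), against 60.6% and 60.2% of the rest of the X (60.4% ± 0.265). Chromosome 4 was covered to 4.91% and 6.39% (5.65% ± 1.04), the 4 centromere-near autosome windows together to 4.96% and 5.77% (5.36% ± 0.572), and the rest of the autosome arms to 7.20% and 8.45% (7.83% ± 0.882). The 4 autosome heterochromatin sequences together reached 1.16% and 1.35% (1.25% ± 0.136). U reached 0.357% and 0.354% (0.356% ± 0.00231). XHet was thus covered 30.3 ± 2.44 times as much as the autosome heterochromatin, and 0.627 ± 0.0204 times as much as the rest of the X. The replicate values of XHet and of the autosome heterochromatin lay far apart from each other and from those of the arms, while chromosome 4 and the centromere-near autosome windows overlapped each other.

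**Figure D1:**
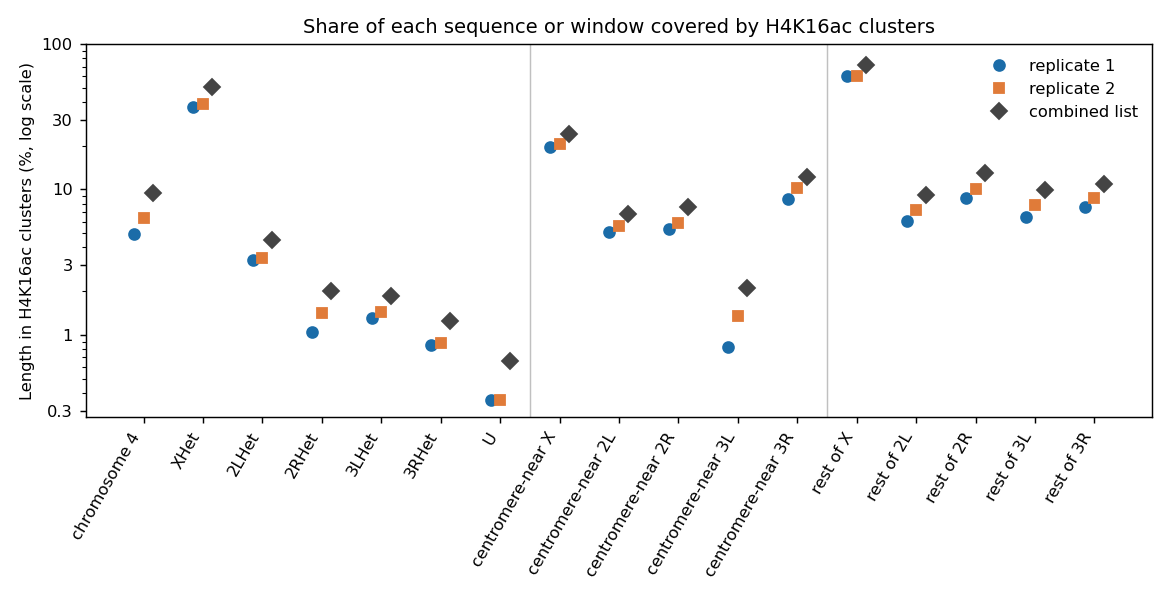
Share of the length of each sequence or window covered by H4K16ac clusters, in percent on a log axis; circles are replicate 1, squares replicate 2 and diamonds the authors' combined list, and vertical lines divide whole sequences, centromere-near windows of 1 Mb and the rest of each arm. XHet at 37.1% and 38.6% stands above the other heterochromatin sequences, which lie between 0.845% and 3.36% in the replicates, and the centromere-near 3L at 0.823% and 1.34% stands below the other windows.

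On chromosome 4 the clusters were slightly narrower and lower in score than in the rest of the autosome arms, and spread over most of its 1.35 Mb. Replicate 1 held 33 and replicate 2 held 41, or 24.4 and 30.3 per Mb, against 30.5 and 33.6 per Mb in the rest of the autosome arms. The median width was 1913 and 1974 bp on chromosome 4, against 2034 and 2112 bp in the rest of the autosome arms. Not one cluster of chromosome 4 reached 10 kb, and the widest was 5551 bp long in replicate 1, against 5523 bp for that of replicate 2. Such width was also rare in the rest of the autosome arms, at 3 of 2826 and 3 of 3116 clusters. The median score was 0.44 in replicate 1 and 0.49 in replicate 2 on chromosome 4, against 0.55 and 0.57 in the rest of the autosome arms. Of the clusters on chromosome 4, 10 of 33 and 14 of 41 scored above that autosome median, where 50% of the autosome clusters do by definition. Coverage of chromosome 4 was 0.682 times that of the rest of the autosome arms in replicate 1 and 0.756 times in replicate 2 (0.719 ± 0.0522, n = 2). In each list it thus lay below, by more than the spread between replicates. That spread does not cover differences along the arms. Single autosome bins of 1 Mb outside the windows were covered to between 1.84% and 17.3% (mean of both replicates). The 5.65% of chromosome 4 lies inside this range. Among the top 50% of clusters by score this ratio of chromosome 4 to the rest of the autosome arms was 0.450 ± 0.0194. A score limit removes more of chromosome 4 because its scores were lower, so this value is not separate from the scores.

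The combined list changed this picture in number but not in score. It named 62 clusters on chromosome 4, or 45.9 per Mb, against 42.7 per Mb in the rest of the autosome arms, so the order of the densities turned round. Coverage stayed lower, at 9.41% of chromosome 4 against 10.7% of the rest of the autosome arms, but it lay above the 9.19% of the rest of 2L. Of the 62 clusters, 30 were found in both replicates (overlap of 1 bp or more), 11 in 1 of them and 21 in neither. The share found in both was thus 48.4% on chromosome 4 and 62.8% in the rest of the autosome arms (2485 of 3955). Those found in both had a median width of 2532 bp and a median score of 0.42, whereas those found in neither had 1273 bp and 0.31. A like contrast was seen in the rest of the autosome arms, with 2709 bp and 0.53 against 1270 bp and 0.34. Replicate 2 alone held 10 of the 11 clusters found in 1 replicate. It also held most of them in the rest of the autosome arms, 518 of 694.

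The widest cluster of chromosome 4 ran from 1047492 to 1053214. It measured 5.72 kb and had the highest combined score of those found in both replicates, 1.17, with 1.16 in replicate 1 and 1.23 in replicate 2. Both replicates covered at least 96.5% of it. The next scores among clusters found in both belonged to 1301986 to 1304907 (0.93 in the combined list), 923965 to 927444 (0.86), 699781 to 702303 (0.72) and 155461 to 158528 (0.64). The widest after the first were 625897 to 629700 at 3.80 kb, 1284060 to 1287795 at 3.74 kb, 923965 to 927444 at 3.48 kb and 1080960 to 1084302 at 3.34 kb. The cluster from 1301986 to 1304907 reached 1.19 in replicate 1 and 1.43 in replicate 2, the highest value of chromosome 4 in each. The replicates covered 59.3% and 60.1% of it.

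Clusters were not spaced evenly along chromosome 4. All 3 lists left the first 78.7 kb at the centromere end free of clusters. The longest free stretch ran from 716773 to 886211 (169 kb), and another from 504802 to 577187 (72.4 kb). When the chromosome was cut into 10 equal pieces, the mean coverage of both replicates was 3.25% in the lowest piece and 8.73% in the highest, so no piece was empty. The last 10% of its length, at the tip of the arm, held 11 combined clusters and was covered to 15.8% in the combined list, the highest of the 10 pieces there, and to 7.80% and 7.91% in replicates 1 and 2. Its median score in the combined list was 0.47, against 0.34 in the other 90%. The replicates differed on this order, with 0.53 against 0.44 in replicate 1 and 0.43 against 0.51 in replicate 2.

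A pair of places on chromosome 4 was named as depleted in the combined list, with scores below 0, and as enriched in a replicate. The region from 1073627 to 1075420 had a combined score of -0.063. Replicate 1 held an enriched cluster from 1073973 to 1075344 inside it with a score of 0.066, and replicate 2 one from 1073713 to 1075393 with a score of 0.097. Each of these was the lowest score on chromosome 4 in its list. The region lay 520 bp past a combined cluster of score 0.32 and 987 bp before one of score 0.12. The other region, from 106825 to 108505, had a combined score of -0.0036 and contained an enriched cluster of replicate 1 with a score of 0.19, while replicate 2 had none there. Such regions are not counted among the 62 combined clusters, but the replicate clusters inside them are counted in the totals of 33 and 41.

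**Figure D2:**
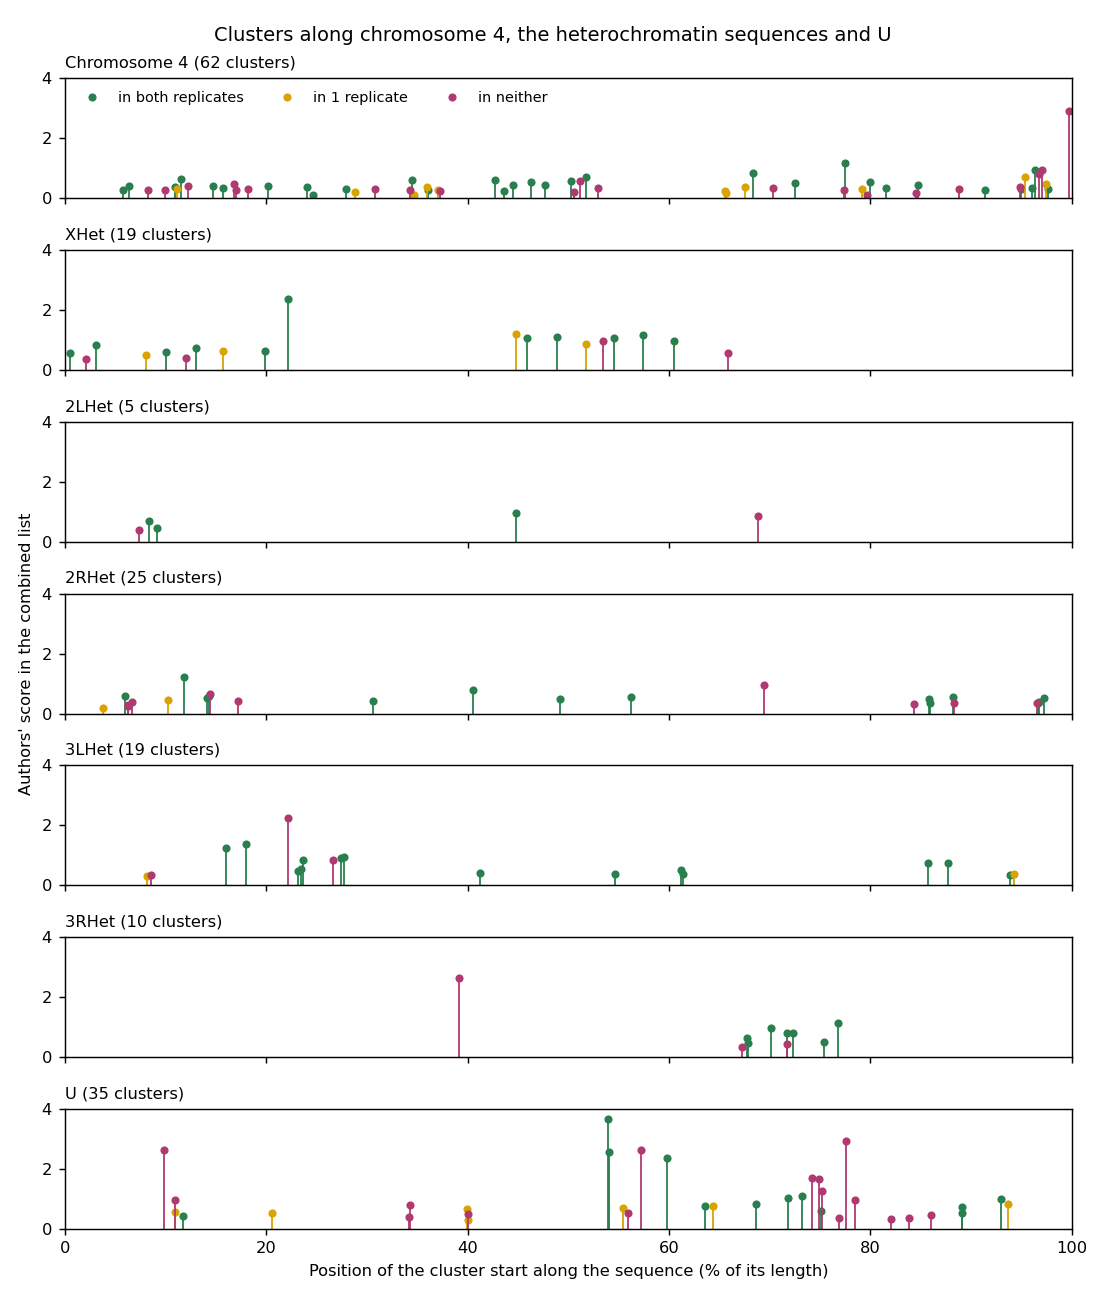
Clusters of the combined list along chromosome 4, the heterochromatin sequences and U; the x axis is the start of each cluster in percent of the length of its sequence, the y axis its score in the combined list, and colour gives the replicates that also held it. The 19 clusters of XHet lie before its last 68.7 kb, 9 of the 10 clusters of 3RHet form 1 block, and lines above a score of 2 that were found in neither replicate are clusters of 1001 to 1062 bp.

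XHet is a short heterochromatin sequence of 204112 bp assigned to the X, and its clusters lay closer to those of the X than to those of the autosome arms in number per Mb and in score. It held 13 clusters in replicate 1 and 14 in replicate 2, or 63.7 and 68.6 per Mb, against 48.1 and 51.3 per Mb in the rest of the X. One domain stood out. It ran from 45313 to 91509 (46.2 kb) in the combined list, with a score of 2.39, and was a single cluster of 45.0 kb in replicate 1 (score 2.48) and of 45.7 kb in replicate 2 (score 2.34). This was the 1 cluster of 10 kb or wider outside the large arms in any of the 3 lists. It held 59.4% and 58.0% of the covered length of XHet in replicates 1 and 2. The other clusters of XHet were of 7.63 kb or less in the combined list.

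Replicates 1 and 2 gave XHet median scores of 1.05 and 1.00, against 0.88 and 0.79 in the rest of the X and 0.63 and 0.65 on the autosome heterochromatin. Every XHet cluster of either replicate scored above the median of the rest of the autosome arms. In the rest of the X nearly all clusters did so too, at 99.2% in replicate 1 and 94.4% in replicate 2. In the combined list the share was 17 of 19 on XHet (89.5%) and 93.6% in the rest of the X. The clusters on either side of the wide domain differed in score. Those between the domain and the low-coordinate end had medians of 0.77 in replicate 1 (n = 6), 0.86 in replicate 2 (n = 8) and 0.60 in the combined list (n = 9). On the other side the medians were 1.20 (n = 6), 1.19 (n = 5) and 1.06 (n = 9). In replicate 1 the scores after the domain (1.05 to 1.47) and before it (0.73 to 1.01) did not overlap, whereas in replicate 2 they did (1.02 to 1.36 and 0.64 to 1.10). These clusters share 1 sequence and 1 library per list, and the side was chosen after the scores had been seen.

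Among XHet clusters found in both replicates the domain was followed in score by 117250 to 121084 with 1.19 and 99791 to 103474 with 1.10. Then came 93642 to 97330 with 1.07 and 111326 to 115644 with 1.06, so all 4 lay after the domain. The widest apart from the domain was 6408 to 14037 at 7.63 kb, made of 2 clusters in each replicate, followed by 26512 to 31774 at 5.26 kb. No list held a cluster from 135372 to the end of XHet at 204112, a stretch of 68.7 kb or 33.7% of the sequence. Of the 19 combined clusters, 11 were found in both replicates, 4 in 1 and 4 in neither. Those found in both made up 85.1% of the summed width, against 89.1% in the rest of the X.

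The autosome heterochromatin sequences carried few clusters, but these were of ordinary or greater width and score. Together 2LHet, 2RHet, 3LHet and 3RHet measure 8.73 Mb and held 39 and 43 clusters in replicates 1 and 2, and 59 in the combined list. This is 4.47 and 4.93 clusters per Mb in the replicates, against 30.5 and 33.6 in the rest of the autosome arms, a ratio of 0.146 in each replicate. The median width was 2325 and 2456 bp on the heterochromatin, against 2034 and 2112 bp in the rest of the autosome arms. The median score was 0.63 and 0.65 on the heterochromatin, against 0.55 and 0.57 in the rest of the autosome arms, so both pooled medians lay higher in each replicate. An exception among the 4 sequences was 2RHet in replicate 1, whose median score of 0.52 lay below the autosome median, with 7 of 15 clusters above it. Above the autosome median score were 25 of 39 heterochromatin clusters in replicate 1 and 29 of 43 in replicate 2.

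Replicates placed the heterochromatin clusters in the same positions. All 39 clusters of replicate 1 overlapped one of replicate 2, and 39 of the 43 of replicate 2 overlapped one of replicate 1 (90.7%). The same shares were 93.2% and 82.4% in the rest of the autosome arms. The length covered in both replicates divided by the length covered in either (the Jaccard index) was 0.772 on the heterochromatin and 0.735 in the rest of the autosome arms. Of the 59 combined clusters, 38 were found in both replicates (64.4%), 4 in 1 and 17 in neither.

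Between the 4 sequences the coverage differed. The share covered was 3.25% in replicate 1 and 3.36% in replicate 2 on 2LHet (3.30% ± 0.0794), 1.05% and 1.42% on 2RHet (1.24% ± 0.262), 1.30% and 1.43% on 3LHet (1.37% ± 0.0936) and 0.845% and 0.877% on 3RHet (0.861% ± 0.0221). On 2LHet this rests on 3 clusters per replicate, and its widest, from 165354 to 172154 (6.80 kb, score 0.96), was also its highest in score. The order of 2RHet and 3LHet is within their spread. Clusters of 3RHet sat together, since 9 of its 10 combined clusters fell between 1693690 and 1936858, a block of 243 kb in 2.52 Mb. All 3 lists left the first 985 kb of 3RHet and its last 581 kb empty. On 3LHet 10 of 19 combined clusters lay between 217778 and 711208 (493 kb), and the longest empty stretch was 618 kb.

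The highest scores found in both replicates were 1.36 on 3LHet (458743 to 461665; 1.25 in replicate 1 and 1.53 in replicate 2), 1.21 on 2RHet (389294 to 392599; 1.29 and 1.21) and 1.15 on 3RHet (1933090 to 1936858; 1.15 and 1.16). These 3 clusters were 2.92 to 3.77 kb wide. The widest found in both were 6.17 kb on 3RHet (1806703 to 1812877), 5.23 kb on 2RHet (1332571 to 1337799) and 3.87 kb on 3LHet (1395192 to 1399060). No cluster of the autosome heterochromatin was as wide as 10 kb.

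U gathers 10.0 Mb of sequence that the assembly does not place on a chromosome, and it was the least covered class. It held 16 clusters in each replicate, or 1.59 per Mb. Its scores were higher than those of the autosome arms, with a median of 0.80 in replicate 1 and 1.09 in replicate 2, against 0.55 and 0.57. The rest of the X had 0.88 and 0.79, so the replicates differed on the order of U and the X. A group of 3 U clusters found in both replicates scored above 2 in the combined list. The highest ran from 5425376 to 5427781, with a combined score of 3.66 and scores of 2.87 and 4.52 in replicates 1 and 2. Close by lay 5435233 to 5438017, with 2.56, 2.59 and 2.60. The widest cluster of U, from 6013793 to 6020278 (6.49 kb), had 2.35, 2.43 and 2.28. The autosome heterochromatin and chromosome 4 held no cluster found in both replicates with a score above 2, whereas XHet held 1 and the centromere-near X held 6. U also had a low share of clusters found in both replicates, 12 of 35 (34.3%), with 7 in 1 and 16 in neither. Of the 16 U clusters in each replicate, 12 overlapped one of the other. The Jaccard index of U was 0.653, against 0.735 in the rest of the autosome arms and 0.875 in the rest of the X. Its near-equal covered shares in the replicates thus came only in part from the same places.

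**Figure D3:**
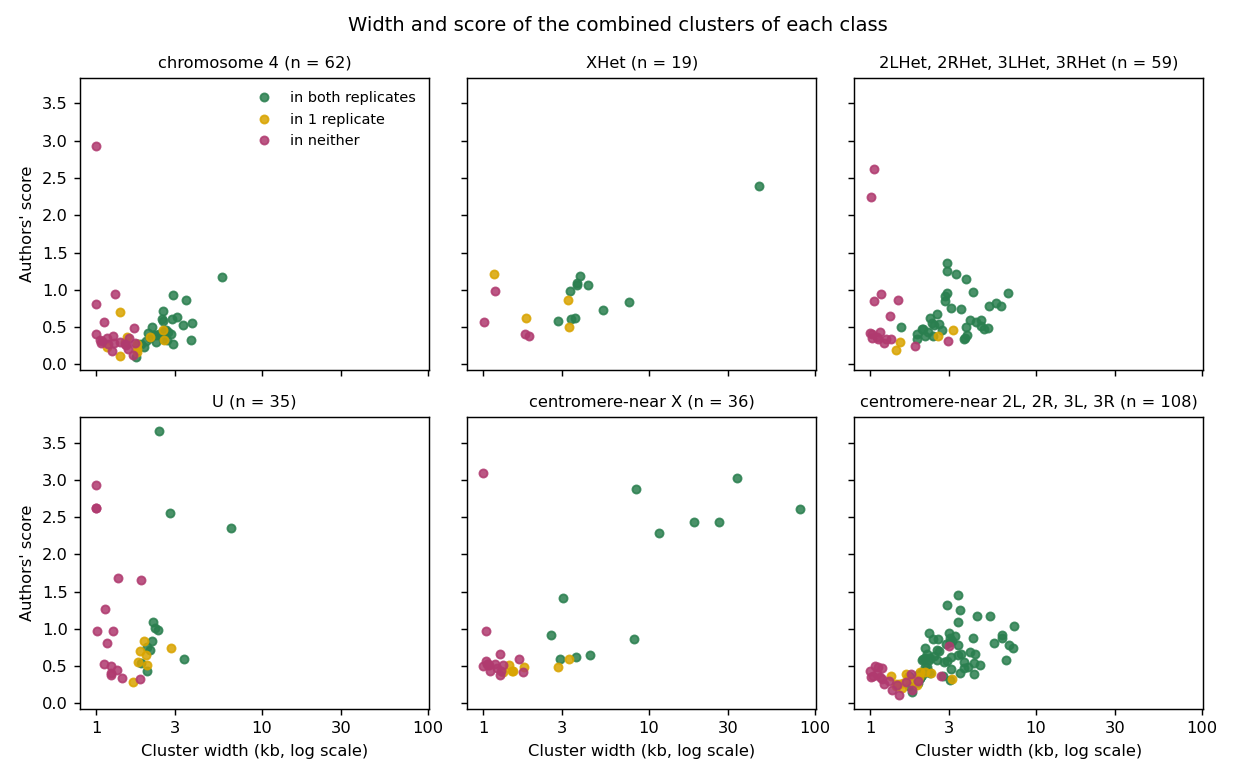
Width (x axis, kb on a log scale) and the authors' score (y axis) of the 319 combined clusters by class; green points were found in both replicates, yellow in 1 and magenta in neither. Wide clusters with scores above 2 appear on XHet and the centromere-near X, the clusters of chromosome 4 crowd at low width and score, and most points above 2 at the left edge were found in neither replicate.

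Some of the highest combined scores belonged to clusters that neither replicate held. Of the 319 clusters described here, 7 were narrower than 1100 bp and scored above 2 (2.19%), against 3 of the 5409 other clusters (0.0555%), and all 10 were found in neither replicate. These limits were chosen after the values had been seen. On chromosome 4 the cluster from 1348021 to 1349021, the last of the chromosome, had a score of 2.92, its highest by far. The same score to within 1e-09 was held by 4 clusters of the combined list, 1 each on chromosome 4, U, 3L and 3R, each 1001 bp wide. A second shared score, 2.63, was held by 3 clusters, 2 on U and 1 on 3RHet (985221 to 986282). On 3LHet the highest score, 2.25, was that of 566886 to 567897. On the centromere-near X a cluster of 1001 bp from 22013710 to 22014710 had 3.09. The highest scores of chromosome 4, 3LHet, 3RHet and the centromere-near X in the combined list were therefore all held by clusters of 1001 to 1062 bp without a counterpart in a replicate.

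The arms differed in what happened at the centromere end. The centromere-near 1 Mb of the X was its least covered bin of 22 (bins of 1 Mb counted from the centromere end), and that of 3L was its least covered of 24, in each replicate and in the combined list. The X bin had 19.5% and 20.5% in replicates 1 and 2, against a median of 61.9% and 61.4% over its other 21 bins. The 3L bin had 0.823% and 1.34%, against 6.11% and 7.57% over its other bins. On 2R the bin was the second lowest of 21 in replicate 1, with 5.31% against a median of 7.79%, and the lowest in replicate 2, with 5.90% against 9.38%. On 2L it lay below the median of the other bins in each list, with 10 of the 23 bins lower in replicate 1 (5.09% against 5.88%), 6 in replicate 2 (5.58% against 6.68%) and 5 in the combined list (6.80% against 8.91%). On 3R it ranked above the middle, with 17 of 27 bins below it or 16 in replicate 2, at 8.61% and 10.2% against medians of 7.50% and 8.73%.

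**Figure D4:**
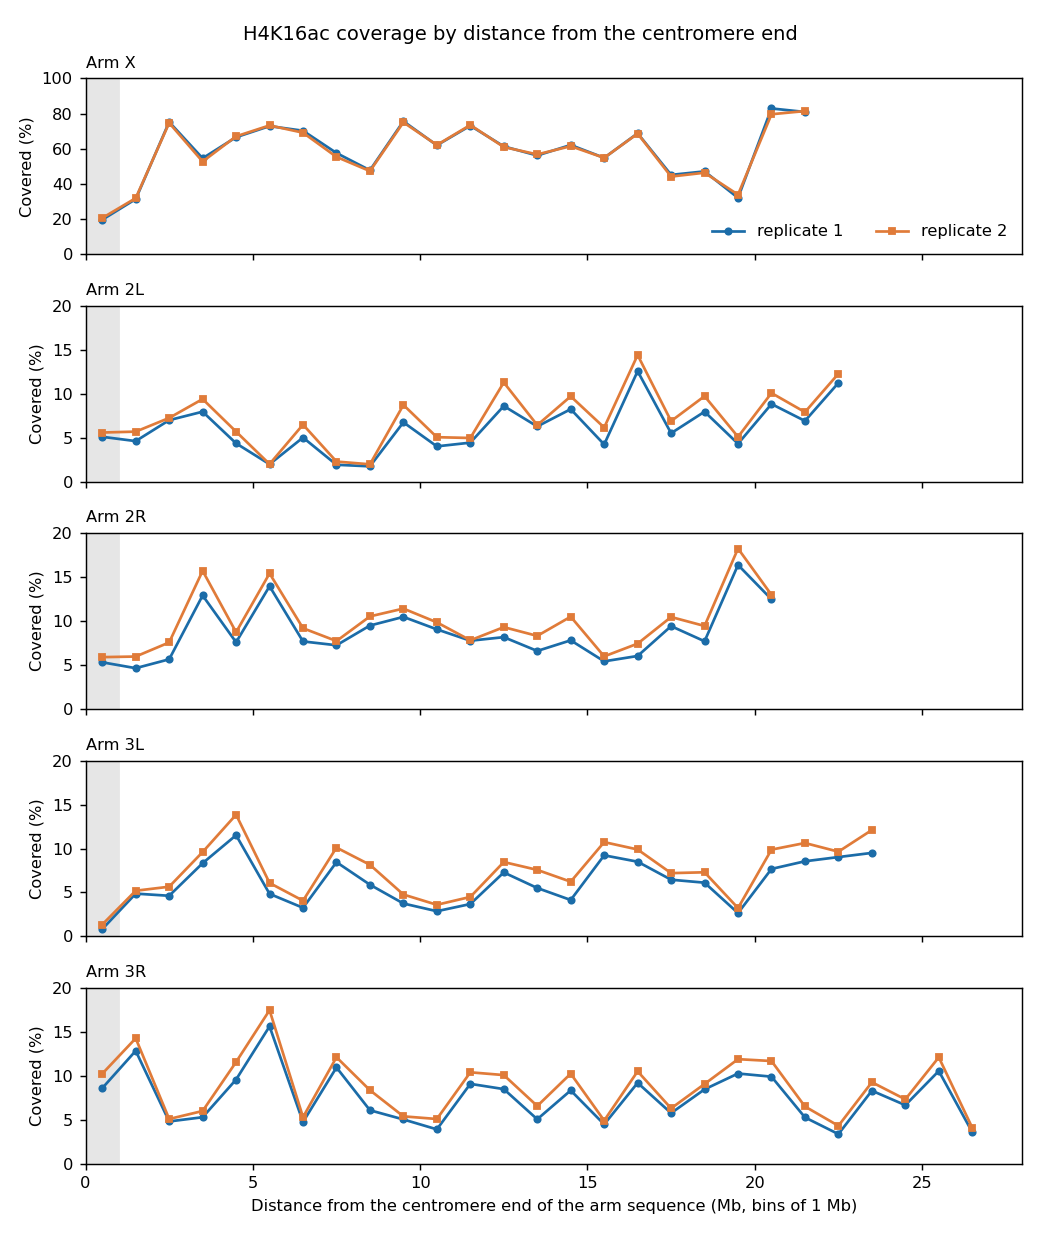
Share of each 1 Mb bin covered by clusters (y axis, percent, to 100 on the X and to 20 on the autosome arms) by distance from the centromere end of the arm sequence (x axis, Mb); the grey band marks the centromere-near window, and lines join bins of each replicate. Coverage of the X drops to 20.5% or less in the first bin and that of 3L to 1.34% or less, while the first 2 bins of 3R show no such drop.

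Set against the rest of its own arm, coverage of the centromere-near window was 0.332 ± 0.0130 times on the X, 0.149 ± 0.0311 times on 3L, 0.596 ± 0.0140 times on 2R, 0.803 ± 0.0449 times on 2L and 1.15 ± 0.0234 times on 3R (SD, n = 2). The direction was the same in both replicates on every arm. On 2L it turned round, to 1.18 ± 0.129 times, when only the top 50% of clusters by score were kept. The ratio was 1.87 ± 0.0242 on 3R with windows of 500 kb and 0.423 ± 0.0170 on 3L with windows of 2 Mb. Number per Mb put the 5 arms in the same order, from 0.164 ± 0.0313 times on 3L to 1.14 ± 0.00343 times on 3R. The 2L window had fewer but wider clusters. It held 18 in each replicate, with median widths of 2936 and 3129 bp in the window, against 2054 and 2164 bp in the rest of 2L. Their median scores were 0.67 and 0.74 in the window, against 0.56 and 0.58 in the rest of 2L. On 3R the widths hardly differed, at 2032 and 2130 bp in the window, against 2053 and 2140 bp in the rest of 3R.

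The second bin of the X from the centromere end was covered to 31.3% in replicate 1 and 31.8% in replicate 2, and the next one to 75.2% and 74.7%. The second bin was the second lowest of the 22 bins in each replicate. A value nearly as low occurred far from the centromere, in the bin starting 19 Mb from that end, with 32.0% and 33.8%. Within the last 1 Mb of the X the mark was concentrated in blocks with long free stretches between them. In bins of 100 kb, 4 of 10 held no cluster in either replicate, whereas the bin between 500 and 600 kb from the end was covered to 78.4% and 78.6%. The longest stretch without a cluster in any list ran from 21511559 to 21843459 (332 kb), followed by 22083758 to 22226621 (143 kb). The 332 kb exceed the longest such stretch in the rest of the X, which was 290 kb. Wide clusters carried most of what was covered: 4 clusters of 10 kb or more in each replicate held 76.8% and 76.7% of the covered length. This is no trait of the window, since such clusters held 82.4% and 81.6% in the rest of the X.

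The largest of these was 21843460 to 21925376 at 81.9 kb and a score of 2.61 in the combined list, next to 21926217 to 21952845 at 26.6 kb and 2.43. The one of highest score found in both replicates was 21468913 to 21503070 at 34.2 kb, whose combined score was 3.03, with 3.15 and 2.99 in the replicates. It lies at the outer side of the window. The cluster closest to the centromere end, from 22404551, ran to the end of the X sequence and past its stated length. It measured 18.6 kb in the combined list, with 2.43 there, 2.42 in replicate 1 and 2.44 in replicate 2. Of the 36 combined clusters of the window, 12 were found in both replicates, 7 in 1 and 17 in neither. The 12 held 85.8% of the summed width, against 89.1% for clusters found in both in the rest of the X. The share of clusters found in both, 33.3%, was close to that in the rest of the X (34.5%, 502 of 1454).

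**Figure D5:**
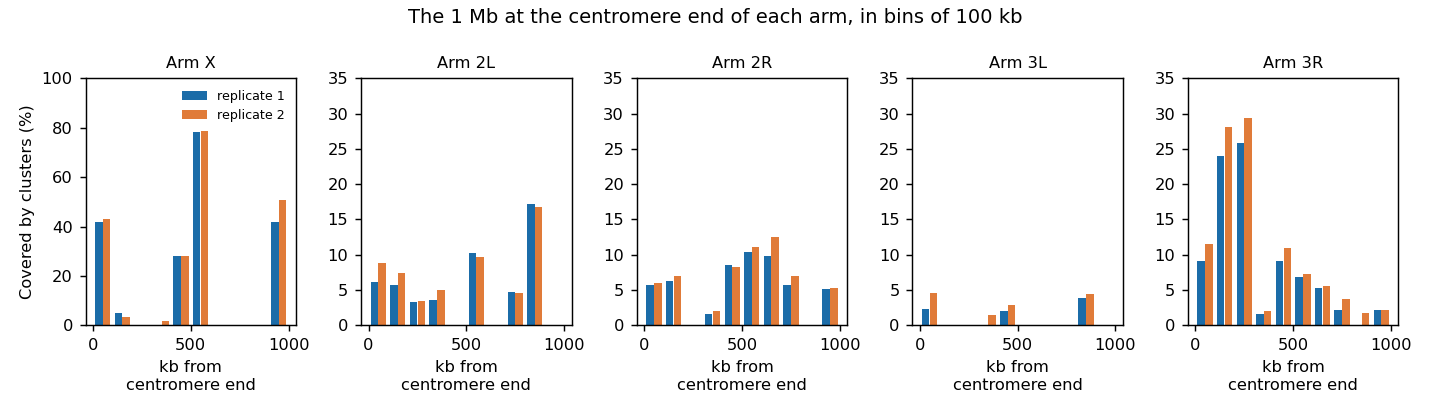
Share of each 100 kb bin covered by clusters (y axis, percent, with a separate scale for the X) in the 1 Mb at the centromere end of each arm (x axis, kb from the end), as a bar for each replicate. The X shows blocks up to 78.6% between empty bins, 3L has 6 bins empty in both replicates, and 3R has its highest bins between 100 and 300 kb.

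On the autosome arms the windows differed most between 3L and 3R. The 3L window held 4 and 6 clusters in replicates 1 and 2, and 9 in the combined list, and 6 of its 10 bins of 100 kb were empty in both replicates. Its longest free stretches were 301 kb, 288 kb and 155 kb. The widest 3L cluster found in both replicates was 24065211 to 24068885 (3.67 kb, score 0.48), and the one of highest score was 24529557 to 24532162 (0.71), which was also the closest to the end, at 11.4 kb. The 3R window held 36, 39 and 48 clusters, and none of its bins was empty in both replicates. Coverage there was concentrated in the bins from 100 to 200 kb (26.0% as the mean of both) and from 200 to 300 kb (27.7%). The 500 kb next to the end of 3R were covered to 13.9% and 16.4%, against 3.30% and 4.09% in the next 500 kb. On 2L and 2R the 500 kb next to the end were covered less than the next 500 kb, with 3.75% and 4.95% against 6.43% and 6.21% on 2L and 4.43% and 4.65% against 6.19% and 7.14% on 2R.

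The 3R window also held the widest centromere-near autosome cluster, from 104452 to 111827 (7.38 kb, score 1.04), and its highest score found in both replicates was 1.32 from 261439 to 264365. On 2R the widest was 430779 to 437659 (6.88 kb, score 0.78). The highest score on 2R, 1.45, belonged to the cluster closest to the end, from 16609 to 20005, which had 1.44 in replicate 1 and 1.53 in replicate 2. On 2L the widest was 22144875 to 22150465 (5.59 kb, score 0.81), the highest score was 1.25 from 22734740 to 22738224, and the cluster closest to the end lay 41.8 kb from it (22966401 to 22969789, score 1.09). The closest on 3R began 759 bp from the end and had a combined score of 0.23, and it was found in replicate 1 only. In replicate 2 the closest on 3R was the one that the combined list gives as 45919 to 48322, with a combined score of 0.86.

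The 1 Mb limit cut no cluster in the combined list. On 2R the last cluster inside it (974623 to 979920, score 1.18) and the first outside (1008574 to 1011304, score 0.48) lay on either side of it. On the X they were 21425755 to 21426959 (score 0.47) and 21393980 to 21395555 (score 0.73), and on 3R 952961 to 955212 (score 0.94) and 1015483 to 1017425 (score 0.38). On 2L the inner cluster was 22119899 to 22121580, at a score of 0.35, and the outer one 21756100 to 21759428, at 0.41. On 3L the inner one was 23664804 to 23667778, at 0.78 and found in neither replicate, and the outer one 23331654 to 23333780, at 0.58.

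By class, the clusters found in both replicates made up 67.6% of the centromere-near autosome clusters (73 of 108), 64.4% of the autosome heterochromatin, 57.9% of XHet, 48.4% of chromosome 4, 34.3% of U and 33.3% of the centromere-near X. In the rest of the autosome arms the share was 62.8% and in the rest of the X 34.5%. Over all 319 clusters 176 (55.2%) were found in both, 48 in 1 and 95 in neither, and those found in both held 77.8% of the summed width. Clusters found in neither were narrow in every class, with median widths of 1053 to 1764 bp.

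Fewer clusters of chromosome 4, the autosome heterochromatin and U had another close by than clusters of the arms did. A neighbour within 10 kb was present for 53.8% and 51.2% of the autosome heterochromatin clusters in replicates 1 and 2, for 37.5% and 25.0% of the U clusters, for 36.4% and 58.5% of those on chromosome 4 and for 65.4% and 66.3% of the centromere-near autosome clusters. In the rest of the autosome arms the shares were 78.5% and 80.8%. All XHet clusters of either replicate had such a neighbour, as did 94.0% and 95.1% of those in the rest of the X. On chromosome 4 the replicates differed widely in this measure, in the way their numbers of clusters did.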

How the data were processed

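The authors deposited 3 lists of regions, 1 for each ChIP replicate and 1 for the replicate set (the combined list), each region with a start, an end and a score set by the authors. The submitters' processing notes name Bowtie 0.12.7, a read aligner. Per the file headers, the deposited coordinates refer to release 5 of the FlyBase assembly. Which region caller and thresholds were used, what scale the score is on, how reads with several placements were treated and how the combined list was made is not given in the sources used here. Scores were above 0 for regions named as enriched and below 0 for those named as depleted.

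Enriched regions were kept as deposited and assigned to classes by position. Covered lengths were clipped to the sequence lengths in the headers, which matters only for the last X cluster. Among clusters found in both replicates, the widest and the one of highest score were named in each class, 5 of each kind on chromosome 4 and XHet, as were the cluster nearest each centromere end and the longest stretch free of clusters. Other regions were named after their values had been seen. The clusters described, the comparisons and the alternatives were chosen with earlier results of these data known. Values are given per replicate and as mean ± SD (n = 2), and no p-value was computed. Covered shares, numbers of clusters and the overlap of clusters were tested on simulated lists, and the other measures were not. Neither gene names nor base sequences are given, because the only annotation at hand is of release 6 and coordinates were not converted. Values were computed in Python 3.11.15 with pandas 2.3.3 and numpy 2.4.6, binomial intervals with scipy 1.17.1, and figures were drawn with matplotlib 3.10.9.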

Additional observations from a re-analysis of the deposited data

How the results depend on the processing

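Covered shares depended on the list and on the score limit more than on the replicate. In the combined list chromosome 4 was covered to 9.41%, XHet to 50.5%, the autosome heterochromatin to 1.84%, U to 0.662%, the centromere-near X to 24.0% and the centromere-near autosome windows to 7.19%. Keeping only the top 50% of clusters by score, the shares were 1.66% for chromosome 4, 0.737% for the autosome heterochromatin, 0.309% for U and 3.17% for the centromere-near autosome windows, while XHet and the centromere-near X moved by less than the spread between replicates. With that limit chromosome 4 had 0.450 ± 0.0194 times the coverage of the rest of the autosome arms (SD, n = 2), in place of 0.719, and the centromere-near 2L had 1.18 ± 0.129 times that of the rest of 2L, in place of 0.803, so its direction turned round. Windows of 500 kb gave 15.1% for the X and 6.35% for the autosome arms, and windows of 2 Mb gave 25.8% and 6.31%. The ratio on 3R was 1.87 ± 0.0242 at 500 kb and that on 3L was 0.423 ± 0.0170 at 2 Mb. Merging clusters less than 500 bp apart moved none of the 6 covered shares by more than the spread between replicates. Leaving out a replicate gave 4.91% to 6.39% for chromosome 4, 37.1% to 38.6% for XHet, 1.16% to 1.35% for the autosome heterochromatin, 0.354% to 0.357% for U, 19.5% to 20.5% for the centromere-near X and 4.96% to 5.77% for the centromere-near autosome windows. The share of clusters found in both replicates was 55.2% (95% exact binomial interval 49.5% to 60.7%). The interval covers counting only and takes clusters as independent, although they share sequences and come from the same replicates. The share was 68.9% among the top 50% by score and 51.1% when each replicate had to cover 50% of the combined cluster. With 1 replicate asked for it was 59.2% to 66.1%. No paired analysis was possible because no list of the input group was used here, so the replicate numbers shared by ChIP and input pair no values. The cause of these shifts was not tested. Depth is unknown, and XHet, each autosome heterochromatin sequence, U and the centromere-near 3L hold 16 or fewer clusters per replicate, so that a single cluster moves their shares, most of all on XHet, where 1 cluster holds 59.4% and 58.0% of the covered length.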

Other observations

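Regions named as depleted in the combined list were often named as enriched in a replicate. Of the 10 depleted regions, 7 contained or overlapped an enriched cluster of a replicate, by at least 1309 bp in each case. The 8 replicate clusters involved had scores of 0.014 to 0.19, each among the 3 lowest on its sequence in its list. Both depleted regions of chromosome 4 were among the 7, and the one from 1073627 to 1075420 was the only one of the 10 enriched in both replicates. These regions count as clusters in the replicate lists and not in the combined list, and the reason was not tested.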
